A study of Mus musculus with 12 samples.

Results

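The autophagy machinery genes are the genes whose products build the autophagosome and load it with cargo. They were taken by gene symbol from 2 deposited lists of N6-methyladenosine (m6A) peaks, 1 from Mettl3 knockout (KO) cells and 1 from wild-type (WT) cells. The rule takes the Atg genes, Ulk1 to Ulk3, the WIPI family, the LC3 and GABARAP genes, Becn1, Rb1cc1, Uvrag, Ambra1 and the cargo receptors Sqstm1, Nbr1 and Optn. It found 36 of the 14070 genes with a peak, with 120 of 41153 peaks in the KO list and 109 of 36682 peaks in the WT list. All 36 had a peak in both lists, as had 87.6% of all genes with a peak. Optn had no peak in either list.

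Both genotypes were BV2 cells, an immortalised mouse microglial line, and both were treated with bacterial lipopolysaccharide (LPS), so no unstimulated group is compared here. The labels describe 12 libraries: 3 m6A antibody pull-down (IP) and 3 input libraries of the Mettl3 KO, and the same of WT cells. METTL3 is the catalytic subunit of the complex that writes most m6A on messenger RNA. The labels do not say whether the KO is 1 clone, nor the dose and duration of LPS. The peak values below, log2 enrichments of IP relative to input, are the authors' own, and so are the adjusted p-values beside them. Regions are also as the authors annotated them, with exonic meaning an exon outside the UTR classes.

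There is 1 list per genotype, so the spread between replicates cannot be measured and the differences below have no test. Depth is unknown because the lists hold no counts. Of 12 microglia and macrophage markers, 11 had a peak in each list, with P2ry12 absent from both. Of 10 neuron and neuroblastoma markers, only Tubb3 had one, of 6 astrocyte markers none, and of 5 oligodendrocyte markers only Mbp. A peak needs both RNA and enrichment, so a gene without one is not shown to be silent. Mettl3 itself had a log2 of 2.07 in the KO list and 1.57 in the WT list, an IP-over-input value that does not check the knockout.

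Autophagy encloses cytoplasm in a double membrane and delivers it to the lysosome. The ULK kinase complex starts the process, and a class III PI3-kinase complex around BECN1 then makes the lipid PI3P. WIPI proteins bind that lipid, while ATG9 and ATG2 bring in membrane lipid. Ubiquitin-like conjugation enzymes next attach LC3 and GABARAP proteins, the mammalian ATG8 family, to the membrane, where cargo receptors dock. In microglia, autophagy clears debris and damaged organelles and restrains inflammatory signalling.

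The m6A mark falls in a short consensus that the series text writes as RRACH, meaning A or G in the first and second letters, then A, C, and any base but G. To show what such a site looks like under a deposited peak, the first 50 bases after annotated gene starts were searched on the sense strand. Such windows were available for 31 genes that the rule names, Optn included. Atg12, Atg16l1, Becn1, Map1lc3a, Rb1cc1 and Wdr45b had none and were not searched. The sequences come from RefSeq, build GRCm38.p6, in which all 36 genes overlapped the positions the lists give. Of the 10 genes with a start window under a peak, 6 held the consensus. In these 4 genes the consensus itself lay within the genomic span of a peak of either list, and spans can include introns. Capitals mark that match.
Atg101: aagcggaggcctGGACCggcgtctgtaggg
Atg3: tccggggaagagAGACAgcttggagaaggc
Atg9a: AGACTggctgcgggtgacagtgaatgacag
Wdr45: ggtAGACAgtatagggaatggaatgtgtca

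The Atg101 stretch lies at chr15:101284306-101284335 on the plus strand, under a 5' UTR peak with a log2 of 0.82 in the KO list and 1.16 in the WT list. The Atg3 stretch, chr16:45158841-45158870 on the plus strand, was under peaks of 0.85 in KO and 0.80 in WT. The Atg9a stretch, chr1:75191981-75192010 on the minus strand, was under a WT peak of 1.10 and no KO peak. The Wdr45 stretch, chrX:7722927-7722956 on the plus strand, was within the spans of peaks of 1.95 in KO and 1.68 in WT. Those spans, of 4730 and 4518 bases, start upstream of the stretch, so the consensus is not shown to be in the enriched part. The consensus is common: it occurred in 44.6% of 32851 such windows of all genes and in 10 of 34 windows of genes that the rule names, Optn included (29.4%). A match is a description of the letters and not a mapped m6A site. Most peaks of these genes lay in 3' UTRs, whose sequences were not analysed here.

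As a whole, the 36 genes carried somewhat weaker peaks in the KO list, as did genes in general. Each gene is represented by its strongest peak on the log2 scale, and differences are KO minus WT. The strongest value was lower in KO for 28 of the 36 genes (77.8%), against 73.4% of the 12320 genes found in both. The median difference was -0.28 (interquartile range -0.68 to -0.04), against -0.25 over all of those genes (-0.64 to 0.02). With all values centred on the -0.25 of all genes, 20 of the 36 were lower. The autophagy genes sat close to the background of the 2 lists.

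A lower KO value by 1 or more, a halving of enrichment, was listed for 2 of the 36 genes (5.56%), against 9.54% of all genes. Those were Rb1cc1 and Wipi2. Neither passed 1 with the mean over peaks, with short peaks or with centred values, and with short peaks the differences were -0.02 for Rb1cc1 and -0.07 for Wipi2. None was higher in KO by 1 or more, against 0.714% of all genes. Enrichment of 4-fold or more was reached by 1 of the 36 genes in the KO list, Atg2a, and by 6 in the WT list: Atg2a, Atg4d, Atg13, Wipi2, Rb1cc1 and Ambra1. Over all genes the shares at 4-fold were 11.4% in KO and 28.0% in WT, against 2.78% and 16.7% of the autophagy genes in those lists. The median strongest value was 0.97 in KO and 1.33 in WT, against 1.07 and 1.36 for all genes with a peak in the KO list and in the WT list.

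**Figure D1:**
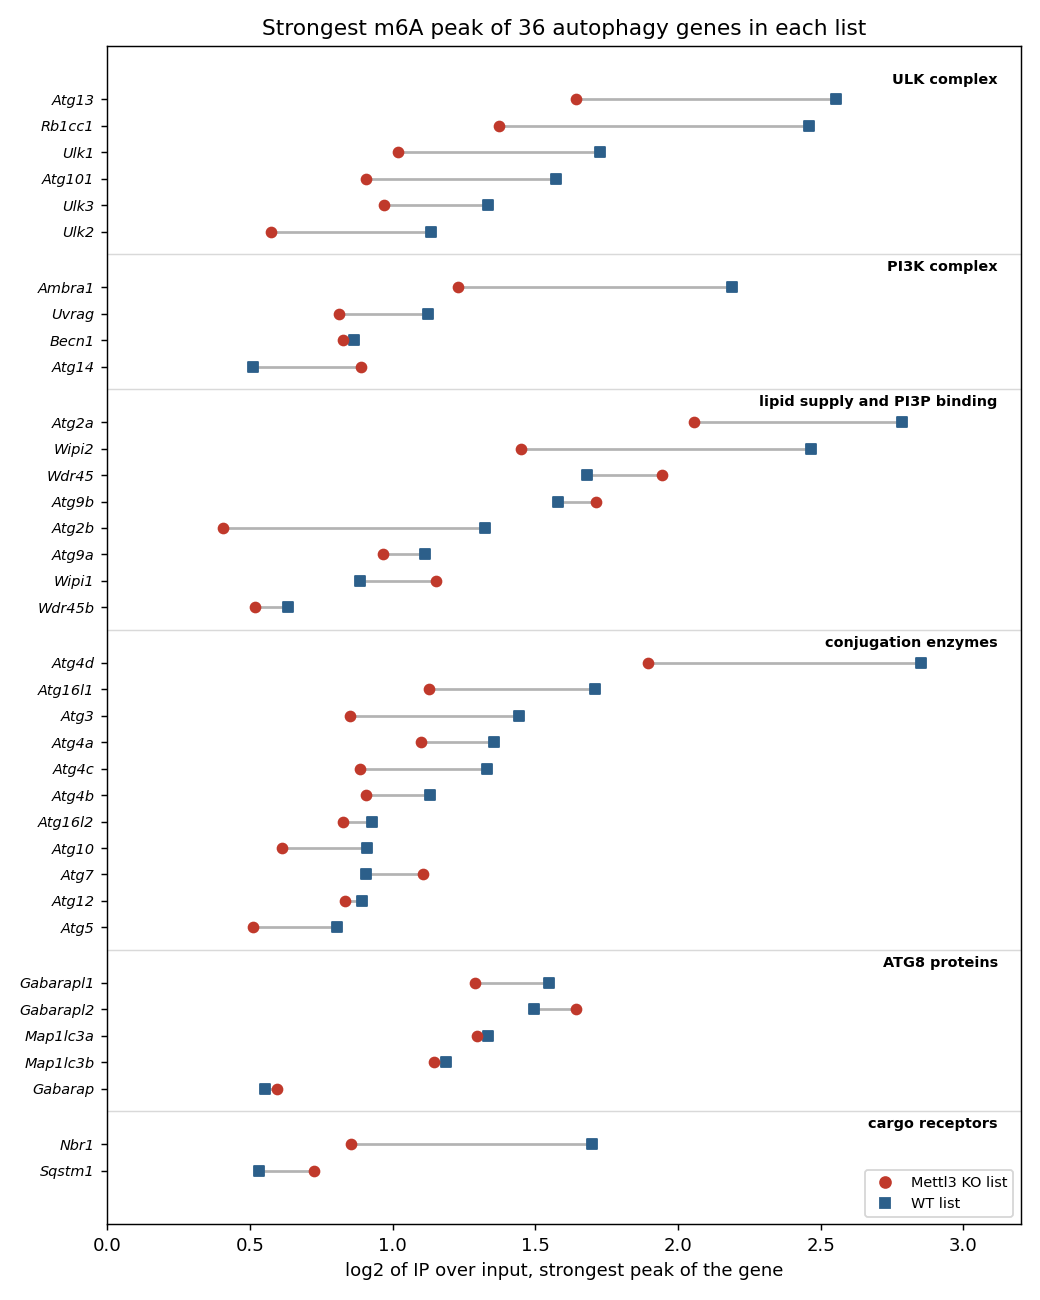
The strongest m6A peak of each of 36 autophagy genes, as log2 of IP over input on the horizontal axis, with a red circle for the Mettl3 KO list and a blue square for the WT list, 1 value each with no replicate error. In the ULK complex every circle lies left of its square, while the ATG8 proteins lie close together except Gabarapl1.

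The order of a gene's values depends on which peaks stand for it. Counting the strongest peak, the mean over its peaks, overlapping peaks, peaks of at most 1000 bases and peaks with an adjusted p of at most 0.001, 21 of the 36 genes were lower in KO under every setting that gave a value. Atg14, Atg7 and Gabarap were higher in KO under each that gave a value. The order of the remaining 12 turned under at least 1 setting, and they are named with it below. With the mean over peaks 5 of 36 turned, against 14.6% of all genes, and with short peaks 6 of 32, against 19.1%. With overlapping peaks 3 of 35 turned, against 5.81%, and at the adjusted p 1 of 34, against 1.67%. The counts over every setting have no share of all genes beside them. The strongest KO and WT peaks overlapped for 24 of the 36 genes (66.7%), against 74.3% of all genes. For the other 12, the 2 values belong to different places in the gene.

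The ULK complex had the lowest median difference of the 6 roles, -0.69, against -0.25 for all genes. All 6 genes were lower in KO, as were 73.4% of all genes. Short peaks, which leave out the long peaks behind most of these values, reduced the difference to -0.02 for Rb1cc1 and -0.12 for Atg13, turned that of Ulk1 and gave none for Atg101. For Ulk2 the difference grew with short peaks, from -0.56 to -0.74, and for Ulk3 it stayed at -0.36. The complex consists of the kinases ULK1 and ULK2, the scaffold FIP200 (encoded by Rb1cc1), ATG13 and ATG101. ULK3, grouped here by name, is a related kinase. The size of a difference also moved with the level of the peaks. Among genes whose mean log2 over the 2 lists was at least 1.5, the median difference was -0.91 for 9 autophagy genes and -0.71 for 4342 genes of all kinds. Lower in KO were 6 of those 9, against 88.0% of the 4342. At a mean from 1 to 1.5, the medians were -0.26 for 15 autophagy genes and -0.25 for all genes. The part of peak level in the values of the ULK complex was not tested.

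Rb1cc1 (ENSMUSG00000025907) had the largest difference of the 36, with 1.37 in KO and 2.46 in WT, or -1.09. It also differed from most of the others in where its peaks lay. The 2 strongest were exonic, the first on chromosome 1 from 6238379 to 6241106 in KO and to 6241131 in WT. At that place the values were 1.35 in KO (adjusted p = 5.96e-32) and 2.46 in WT (6.93e-133). A second exonic peak, which spans introns, from 6244082 to 6264719 in KO had 1.37, and its WT counterpart, from 6243957 to 6264669, had 2.27. Both exonic peaks were about 1 lower in KO, at nearly the same coordinates. An intronic peak of 100 bases, from 6272583 to 6272682 in both lists, went the other way, with 1.20 in KO and 0.88 in WT. A further intronic peak, 0.55, was in the KO list only. In the 3' UTR the KO list had 1 peak (0.95) and the WT list 3 (0.60, 0.57 and 1.21), and the KO peak overlapped none of them.

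Atg13 stood at 1.64 in KO and 2.55 in WT. Its strongest peak, annotated as 3' UTR, ran on chromosome 2 from 91675193 to 91679387 in KO and to 91679612 in WT. A separate peak at the 3' end, from 91674618 to 91674917 in both lists, differed little, at 1.31 and 1.43. The peak at the 5' end, from 91705647 to 91710576 in both, was weak, at 0.53 in KO and 0.72 in WT. Within Atg13 the difference was uneven, -0.91 at the strongest peak and -0.12 at the 3' end.

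Atg101 had 2 peaks in each list. The 3' UTR peak, from 101287183 to 101290945 on chromosome 15 in both lists, stood at 0.91 in KO (adjusted p = 1.7e-131) and 1.57 in WT (2.81e-290). The 5' UTR peak shown above was also lower in KO. Ulk1 stood at 1.02 in KO and 1.73 in WT, and its 3' UTR peak was 950 bases long in KO and 1973 in WT. Among peaks of at most 1000 bases, which drop that WT peak, the order of Ulk1 turned (0.10). Ulk2 stood at 0.58 in KO, in an exonic peak, and 1.13 in WT, in the 3' UTR. At the 3' UTR place the KO value was 0.40, so the difference there was -0.74. Ulk2 also had 2 peaks of 5' UTR in WT, at 0.95 and 1.08, with no KO counterpart. Ulk3 stood at 0.97 in KO and 1.33 in WT, at different places. Its overlapping pairs differed by -0.65 at the strongest WT peak and -0.02 at the strongest KO peak.

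**Figure D2:**
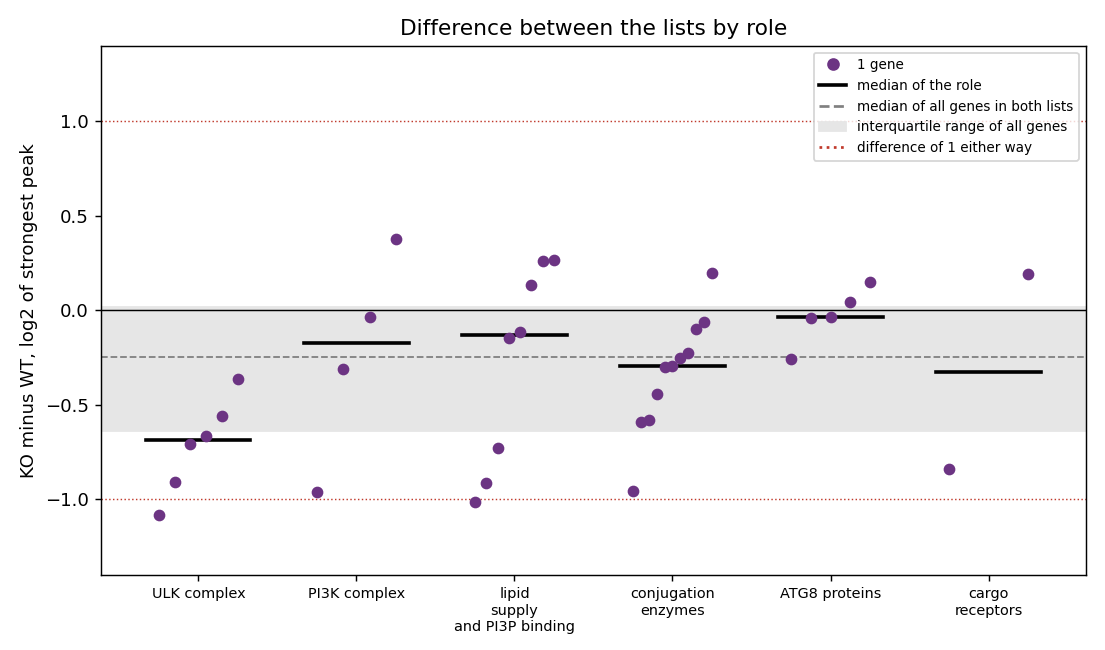
KO minus WT difference in the log2 of the strongest peak for each autophagy gene, by role, with black bars for role medians, a dashed line at the median of all genes (-0.25) and grey shading for their interquartile range. The 6 ULK complex genes all lie below that median, and 4 of the 5 ATG8 genes lie above it.

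The PI3-kinase group was mixed. Ambra1, a scaffold that links BECN1 to the ULK complex, stood at 1.23 in KO and 2.19 in WT, a difference of -0.96. Its WT 3' UTR peak spanned chromosome 2 from 91900626 to 91918849. In the KO list that stretch held 2 shorter peaks, from 91911484 to 91918477 at 1.23 and from 91918503 to 91918849 at 1.05. The broad exonic peak of Ambra1 was likewise lower in KO, at 0.64 over 37295 bases, against 1.31 over 37970 bases in WT.

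Becn1, the core of the complex, was nearly equal in the 2 lists at 0.83 in KO and 0.86 in WT. Those values belong to the same 425 bases of 3' UTR, from 101288077 to 101288501 on chromosome 11, and the order of Becn1 turned with the mean over peaks (0.06). Uvrag, a partner of BECN1 in a second complex that acts on endosomes and autophagosome maturation, had 0.81 in KO and 1.12 in WT, and short peaks alone gave the opposite sign (0.13). Atg14, which directs BECN1 to the forming autophagosome, was the gene with the highest KO value relative to WT, at 0.89 and 0.51. The only WT peak had an adjusted p of 0.0118, and the strongest KO peak, in the 5' UTR, one of 0.00725. At the 3' end of the gene, where peaks of both lists overlapped, Atg14 stood at 0.84 in KO (adjusted p = 4.19e-08) and 0.51 in WT. A further 3' UTR peak of the KO list had 0.33.

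Among 8 genes for lipid supply and PI3P binding, KO was lower for 5, against 73.4% of all genes, and the median difference was -0.13. Wipi2 (ENSMUSG00000029578), whose product recruits the conjugation machinery to PI3P, stood at 1.45 in KO and 2.47 in WT, a difference of -1.02. Both values come from 1 place in the 3' UTR, on chromosome 5 from 142665475 to 142667495 in KO (adjusted p = 1.22e-299) and from 142665500 to 142667645 in WT (listed at 0). The other 3' UTR peak of Wipi2 differed little, at 1.13 in KO and 1.20 in WT. At the 5' end KO had 1.07 and WT 0.87, and an intronic peak had 0.69 and 0.67. The KO list had 7 Wipi2 peaks and the WT list 4, and the 3 exonic peaks, at 0.44, 0.50 and 0.50, were in the KO list only.

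Atg2a, which encodes a lipid transfer protein, had the strongest KO peak of the 36 genes at 2.05, against 2.79 in WT. Both peaks ended at the gene end, position 6262335 of chromosome 19, and spanned 894 bases in KO and 2866 in WT. The short-peak setting drops the WT one, so the order turned there (1.24). The remaining Atg2a peaks were weaker, 0.39, 0.88 and 0.64 in KO and 0.51 and 0.81 in WT. Its paralogue Atg2b stood at 0.41 in KO and 1.32 in WT, but the WT value came from 375 bases of intron with no KO peak. The 3 overlapping pairs of Atg2b differed by -0.15, -0.23 and -0.07.

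Wdr45, a WIPI family member, was 1 of the 3 genes of this role with the higher KO value, at 1.95 in KO and 1.68 in WT. That 5' UTR peak spanned 4730 and 4518 bases, and the order turned with the mean over peaks (-0.08) and among short peaks (-0.06). Its peak at the gene end was lower in KO, at 0.92 and 1.31. Inner Wdr45 peaks stood at 0.98 and 0.40 in KO, against 0.98 and 0.60 in WT. Atg9b (1.71 and 1.58) turned under those same settings, to -0.09 and -0.31. Wipi1 (1.15 and 0.89) took its KO value from a 3' UTR peak of 250 bases in the KO list only, and stood at 0.83 and 0.89 where peaks overlapped. Atg9a, the membrane scramblase of the pathway, stood at 0.97 and 1.11 over the same 525 bases. Wdr45b (0.52 and 0.63) was weak in both lists and turned where peaks overlapped (0.06).

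**Figure D3:**
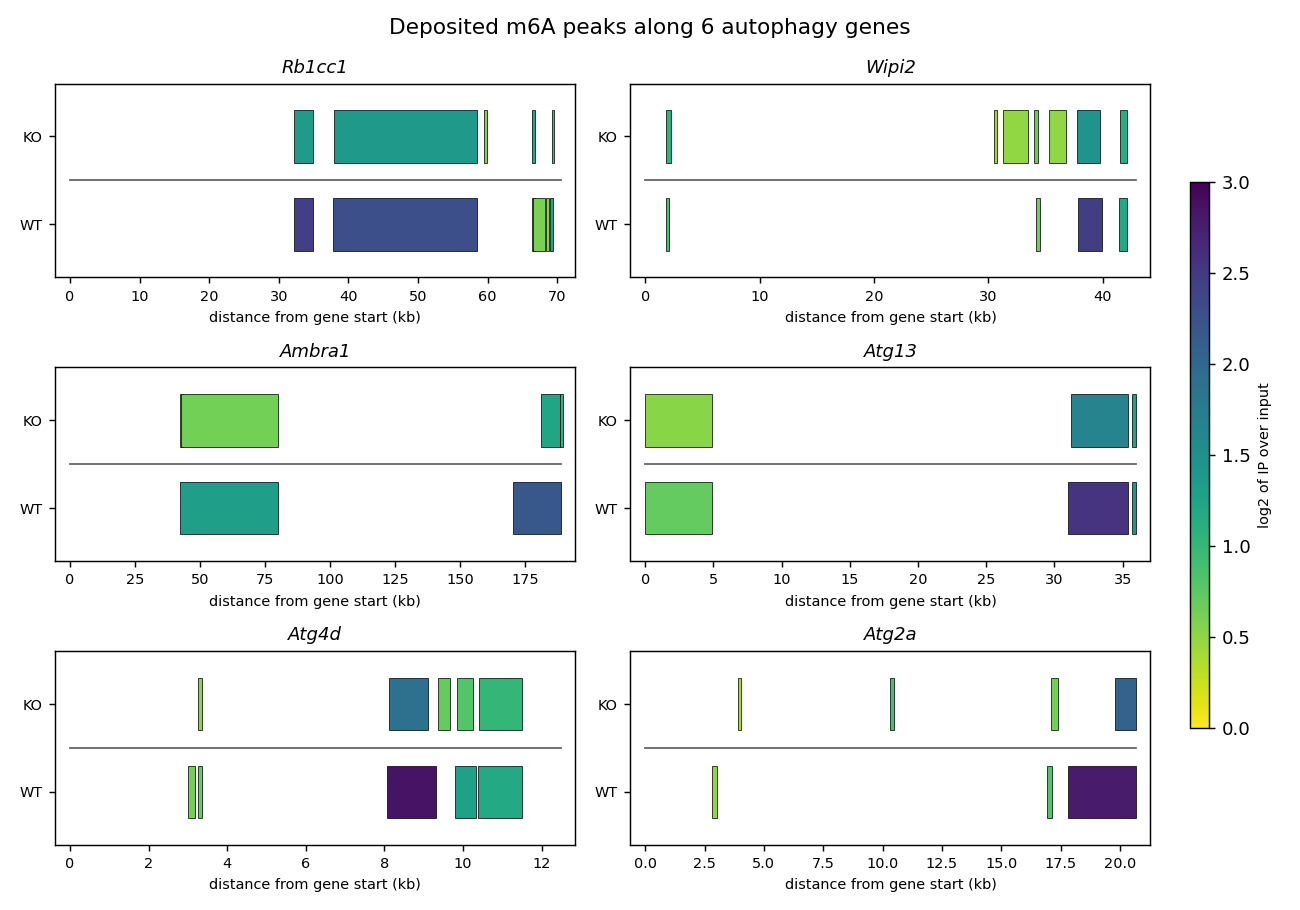
Deposited m6A peaks along 6 autophagy genes, with the KO list above the WT list, distance from the gene start in kb on the horizontal axis (introns included) and colour for the log2 of IP over input. The strongest Rb1cc1 peaks lie in the inner gene, those of the other 5 genes toward the 3' end, and the darkest boxes are in the WT rows.

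The conjugation enzymes were lower in KO for 10 of 11 genes, against 73.4% of all genes. Their median difference, -0.30, was near the -0.25 of all genes. Atg4d, 1 of 4 proteases that process ATG8 proteins, had the strongest WT peak of all 36 genes, 2.85, against 1.89 in KO. The peak covered chromosome 9 from 21273409 to 21274408 in KO and from 21273359 to 21274608 in WT, annotated as 3' UTR. Downstream 3' UTR peaks of Atg4d stood at 0.82 and 1.02 in KO, against 1.29 and 1.20 in WT. A further KO 3' UTR peak had 0.71, and exonic peaks had 0.52 in KO and 0.63 and 0.69 in WT. The WT peak spans 1250 bases and the KO peak 1000, so the short-peak setting removes only the WT value and turns the order (0.60). The other ATG4 proteases also had lower KO values: Atg4a 1.10 and 1.36, Atg4b 0.91 and 1.13, Atg4c 0.89 and 1.33. The Atg4b values belong to different places. Its overlapping peaks stood at 0.88 in KO and 1.13 in WT at one place, and 0.91 and 0.74 at the other.

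Atg16l1, the scaffold that places LC3 conjugation on the membrane, stood at 1.13 in KO and 1.71 in WT in an intron, with overlapping peaks in both lists. Its exonic peak, of 475 bases in KO and 450 in WT, differed little, at 0.94 and 0.90. Atg3, which transfers LC3 to lipid, stood at 0.85 and 1.44, and the WT value again came from 375 bases of intron with no KO peak. At the 5' end, where both lists had a peak, the order of Atg3 turned (0.05). The ubiquitin-like protein gene Atg12 (0.83 and 0.89), its target Atg5 (0.51 and 0.81), Atg16l2 (0.83 and 0.93) and the conjugating enzyme gene Atg10 (0.61 and 0.91) had modest peaks. The Atg10 peaks of the 2 lists did not overlap at all. Atg7, the E1-like enzyme of both conjugation routes, was the 1 gene of this role with the higher KO value, at 1.11 and 0.91. Those values belong to different 5' UTR places. In the 3' UTR, Atg7 had 0.41 in KO and 0.54 in WT over the same 375 bases, and 0.62 and 0.51 at a second overlapping place.

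The ATG8 genes differed least between the lists, with a median difference of -0.04. Map1lc3a stood at 1.30 in KO and 1.33 in WT, and Map1lc3b, the usual autophagosome marker, at 1.14 and 1.19 at different places in the gene. Overlapping pairs of Map1lc3b differed by -0.22 at the strongest WT peak and 0.11 at the strongest KO peak. The lists place Map1lc3b inside the span of another annotated gene on the same strand, Galnt2l. Gabarapl1 stood at 1.29 and 1.55, Gabarapl2 at 1.64 and 1.49 and Gabarap at 0.59 and 0.55. The Gabarapl2 order turned with the mean over peaks (-0.00083), and its second peak stood at 0.48 in KO and 0.63 in WT. Map1lc3b carried 5 peaks in KO and 6 in WT, spread from the 5' UTR to the 3' end. Gabarap and Map1lc3a carried a single 3' UTR peak in each list.

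The 2 cargo receptor genes went opposite ways. Nbr1 stood at 0.86 in KO and 1.70 in WT, with a 3' UTR peak that ended at the gene end in both lists and spanned 1196 bases in KO and 5352 in WT. Sqstm1, which encodes p62, stood at 0.73 in KO and 0.53 in WT over 900 and 1000 bases of 3' UTR. Both Sqstm1 values were low but had very small adjusted p-values, 3.53e-183 in KO and 1.06e-256 in WT. The KO list added 2 exonic peaks of Sqstm1 at 0.44 and 0.42, and the mean over peaks turned the order to -0.01.

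Peak by peak, most positions were held in common. Of the KO peaks of these genes, 86 of 120 (71.7%, 95% Wilson interval 63.0 to 79.0) overlapped a WT peak by at least 1 base on the same strand, against 72.9% of all KO peaks. Of the WT peaks, 85 of 109 (78.0%, 69.3 to 84.7) overlapped a KO peak, against 77.2% of all WT peaks. The intervals cover the counting of peaks only, and peaks of 1 gene are not independent. More peaks were listed in KO for 13 of the 36 genes (36.1%), against 40.2% of all genes, and in WT for 9 (25.0%), against 21.3%. Peaks without a partner had medians of 0.49 for 34 KO peaks and 0.71 for 24 WT peaks, against 0.82 in KO and 0.92 in WT for peaks held in common. Of those, 16 of the 34 KO peaks were exonic (47.1%), against 36.9% of all unpartnered KO peaks, and 5 of the 24 WT peaks (20.8%), against 24.9%. An exonic peak of any kind was listed in KO for 20 of the 36 genes (55.6%), against 42.6% of all genes in both lists. In WT it was 11 (30.6%), against 35.0%. The exonic shares of all peaks and all genes keep noncoding RNA, whose exons are a class apart, so the sets compared are unlike.

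A stricter view used the 10 peaks of 9 autophagy genes with identical coordinates in both lists. The KO value was lower for 9 of the 10, against 61.9% of the 2916 identical peaks of all genes, with a median difference of -0.14, against -0.06. The Atg101 3' UTR peak differed most, by -0.67. The other lower ones, in Atg13 (both ends), Atg4d, Atg7, Atg9a, Gabarapl2, Becn1 and Map1lc3b, differed by -0.19 to -0.03. The intronic Rb1cc1 peak was the exception, higher by 0.31. Over all 98 overlapping pairs, 68 were lower in KO (69.4%), against 70.8% of pairs over all genes.

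**Figure D4:**
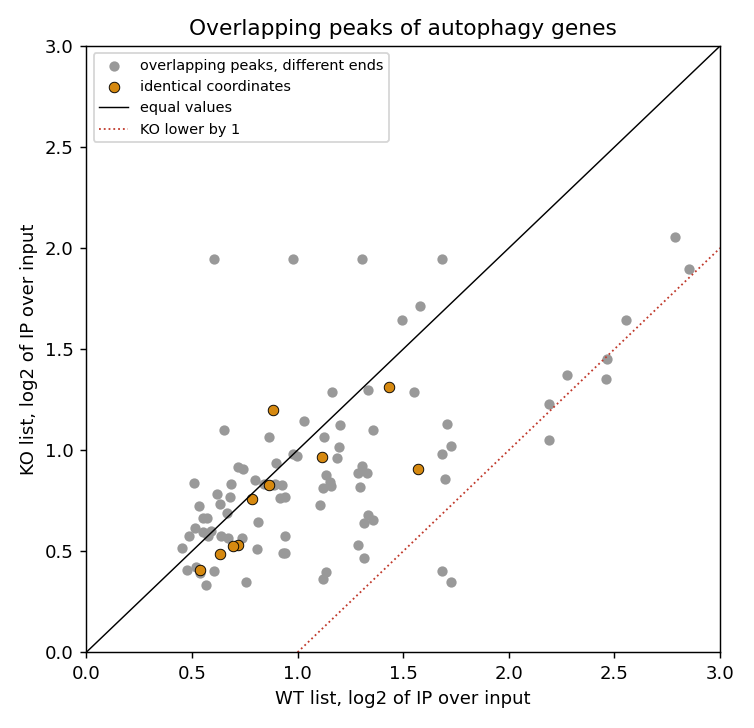
The 98 overlapping peak pairs of autophagy genes, with the WT value on the horizontal axis and the KO value on the vertical axis, both as log2 of IP over input. Orange points are the 10 pairs with identical coordinates, 9 of them below the line of equal values, and 1 Wdr45 peak of the KO list pairs with several WT peaks in a row at the same height.

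In the deposited annotation, 3' UTRs held 59.2% of the KO peaks of these genes (95% interval 50.2 to 67.5) and 66.1% of the WT peaks (56.8 to 74.3), against 51.4% of the other KO peaks and 53.0% of the other WT peaks. The other peaks include exons of noncoding RNA, a class with no peak of these genes. Without that class, a choice made after seeing the data, the other peaks were at 54.9% in KO and 57.7% in WT, inside both intervals. As above, the intervals cover the counting of peaks only, and peaks of 1 gene are not independent. All 36 genes had at least 1 3' UTR peak in each list, against 84.4% of all genes in KO and 84.1% in WT. These shares of all genes, and those below, keep the genes of noncoding RNA, so the sets compared are unlike. Exonic peaks made up 25.0% in KO and 18.3% in WT, close to the 25.1% and 21.1% of other peaks. The strongest peak was in the 3' UTR for 27 of the 36 genes in KO, against 64.5% of all genes, and for 29 in WT, against 63.9%. A 5' UTR peak was found for 10 genes in each list (27.8%), against 34.9% of all genes in KO and 31.1% in WT.

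Genes of the same pathway outside the rule gave a similar picture. All 46 listed regulators and fusion factors had a peak in both lists, 33 of them lower in KO (71.7%, against 73.4% of all genes), and the median difference was -0.29. By 1 or more, 4 were lower (8.7%, against 9.54% of all genes): Zfyve1 (2.71 in KO and 3.88 in WT), Vps39 (1.62 and 2.78), Trim13 (1.36 and 2.47) and the kinase gene Dapk1 (1.74 and 2.85). Tfeb, the transcription factor of lysosomal and autophagy genes, had 2.96 in KO and 2.63 in WT, while its mean over peaks was lower in KO (-0.17). The lists carry a KEGG autophagy label on 120 genes with a peak, 29 of them among the 36. Of the 86 others with a peak in both lists, 60 had a lower KO value (69.8%), and the median difference was -0.32.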

How the data were processed

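RNA of LPS-treated BV2 cells was profiled by m6A pull-down and input sequencing, 3 libraries each per genotype. Per the labels' protocols, poly(A) RNA was cut into fragments, pulled down with an antibody to m6A and sequenced from libraries that keep the strand. That text names neuroblastoma cells, whereas the sample labels name microglial cells. Tools named in the submitters' processing notes, with no roles, are edgeR, StringTie, HOMER, HISAT2, FastQC and fastp. Which caller and build were used, and whether replicates were pooled, is not given in the sources used here. Per the file headers, the authors deposited 1 row per peak with its position, region and gene, the log2 enrichment in the IP and both raw and adjusted p-values.

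From these, strongest-peak values, differences and overlaps were computed with Python 3.11.15, pandas 2.3.3, numpy 2.4.6 and SciPy 1.17.1, and figures with matplotlib 3.10.9. Starts were counted from 0 and are printed from 1. Spans include introns. Scripts were tested on simulated data derived from WT peaks. Members, roles and lists were chosen with earlier results of these data known. Every gene the rule matches is named, with more detail for those with a difference of at least 1, 1 of the 3 strongest peaks in either list, or a higher KO value. Alternatives were stricter thresholds, peaks of at most 1000 bases, means over peaks, overlapping peaks, equal numbers of peaks, centring, a 50% reciprocal overlap and strand ignored.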

Additional observations from a re-analysis of the deposited data

How the results depend on the processing

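The values above describe 1 list per genotype, with IP efficiency, RNA amount and scaling not separated from m6A. No paired analysis was possible because the lists hold no per-library values. The median difference of the 36 genes (-0.28) was -0.0667 with peaks of at most 1000 bases, against -0.0538 for all genes. Taking the mean of a gene's peaks gave -0.18, against -0.17 for all genes. The median of all genes, -0.25 with the strongest peak, thus shrank along with that of the 36. Centring on all genes gave -0.0305 for the 36 and by construction removes the shared shift. The count lower in KO by 1 or more, 2, became 0 under each of those 3 settings. Over all genes that count was 412 of 9360 with short peaks and 673 of 12320 with the mean over peaks. For centred values it is not given here. Among short peaks the count higher by 1 or more became 1 of 32, against 148 of 9360 over all genes, and came from Atg2a. That gene keeps its strongest KO peak there and loses its strongest WT peak. Its KO value of 2.05 is then set against 0.81 from an exonic WT peak elsewhere in the gene. With peaks of at least 4-fold, 1 gene, Atg2a, remained in both lists and 5 in the WT list only. Among all genes with a peak in the list, 11.4% reached 4-fold in KO and 28.0% in WT. A reciprocal overlap of 50% left 48.3% of KO peaks and 53.2% of WT peaks shared, and an adjusted p of at most 0.001 gave 80.2% for KO peaks. The same shares over all peaks are not given here. Over the settings that give it, the number lower in KO lay between 20, with centred values, and 31, with the mean over peaks. Lower were 86.1% with the mean over peaks and 68.8% with short peaks, against 77.2% and 58.2% of all genes. With overlapping peaks it was 74.3%, against 72.8%, and at the adjusted p 82.4%, against 74.0%. Among short peaks 32 genes had a value in both lists, and at an adjusted p of at most 0.001 34 did.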
